A study of Drosophila melanogaster with 18 samples.

Results

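The genes described here are 33 genes of synaptic transmission in the fruit fly Drosophila melanogaster, taken by symbol from 16747 gene entries of whole-fly RNA-seq. The list of names held 36 entries, of which 3 were second spellings without a row of their own, and each of the 33 genes had a row in both tables. By role they are 4 genes of the active zone, 12 of vesicle fusion and release, 8 of vesicle endocytosis, 3 vesicular transporters and 6 voltage-gated channels. All 33 passed the filter on low counts in both sexes.

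The study sampled 6 groups, each with 3 libraries of whole flies aged 5 days. INT males, INT females, NINT males and NINT females are labelled as genetically heterogenous and come from generation F12. F0 males and F0 females are labelled with 10 founder strains, which are Oregon R flare3 (ORR, flr3), flare3 (flr3), multiple wing hairs (mwh), Wild_1A, Canton-S, Oregon-R-C, w1118, BER_2, Harwich and DGRP-100. The labels do not spell out INT and NINT, name no treatment, and do not say how many flies went into a library or whether the 3 libraries of a group came from separate cultures. The p-values therefore measure the spread between these libraries, which may be technical.

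At a chemical synapse, an action potential carried by sodium and potassium channels opens calcium channels at the active zone. Calcium entry then triggers fusion of docked vesicles through the SNARE proteins, and the vesicle membrane is recovered by endocytosis and refilled with transmitter by vesicular transporters. Many of the fly genes of this machinery were found through temperature-sensitive paralysis, leg shaking under ether or failure of transmission, among them comatose (comt), shibire (shi), paralytic (para) and Shaker (Sh).

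Male libraries held 31.8 to 39.2 M counts, and female libraries held 31.6 to 35.4 M in INT, 40.9 to 47.2 M in NINT and 50.2 to 58.3 M in F0. Some libraries stood apart by tissue markers. The flight muscle actin gene Act88F exceeded 1000 counts per 1e6 of the unscaled total in 3 female libraries (INT female 3, F0 female 1 and F0 female 2) and in F0 male 1. Elsewhere CPM stands for counts per 1e6 of the library size scaled within each sex. The summed yolk protein genes Yp1, Yp2 and Yp3 exceeded 500 counts per 1e6 of the unscaled total in 4 male libraries (NINT males 2 and 3, F0 males 1 and 2). F0 male 1 thus stood apart by both. Each comparison is given with and without these libraries. Entries of ribosomal RNA took 10.4 to 23.2% of the counts in INT females, 5.94 to 7.36% in NINT females and 20.3 to 36.3% in F0 females, and 1.84 to 8.80% in males. In whole flies, fewer cells of a type and less RNA per cell cannot be told apart.

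Per kilobase of annotated exon, the synaptic genes were led by a few genes that were abundant in every group. In males, nSyb, the neuronal synaptobrevin that serves as vesicle SNARE, averaged 71.5 ± 0.93 CPM per kb in INT, 50.4 ± 1.38 in NINT and 54.7 ± 2.12 in F0 (SD, n = 3). Rop, the fly homologue of the syntaxin-binding protein Munc18, averaged 49.1 ± 4.28, 50.6 ± 3.41 and 46.2 ± 1.60 CPM per kb in the same order of groups. nSyb was thus ahead of Rop in INT and F0 males, whereas in NINT males they differed by less than their SD.

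In females the order per kilobase was different at the top. Rop led in INT, with 30.1 ± 1.54 CPM per kb, and in NINT, with 32.2 ± 1.56. Csp, the cysteine string protein co-chaperone of vesicles, followed with 28.2 ± 0.84 in INT and 29.8 ± 0.67 in NINT, and in F0 females it came first with 35.7 ± 4.6, ahead of Rop with 30.9 ± 1.81. The lowest level per kilobase belonged to the potassium channel gene eag in every male group and in INT females, and to VGAT, the vesicular GABA transporter, in NINT and F0 females. The 33 genes summed to 2896, 3185 and 3043 CPM in INT males and to 2400, 2504 and 2271 CPM in NINT males. In females, whose library sizes were scaled separately from those of males, the sums were lower, at 1309, 1365 and 1698 CPM in INT and 1092, 1236 and 1077 CPM in NINT. The INT and NINT sums did not overlap in either sex.

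**Figure D1:**
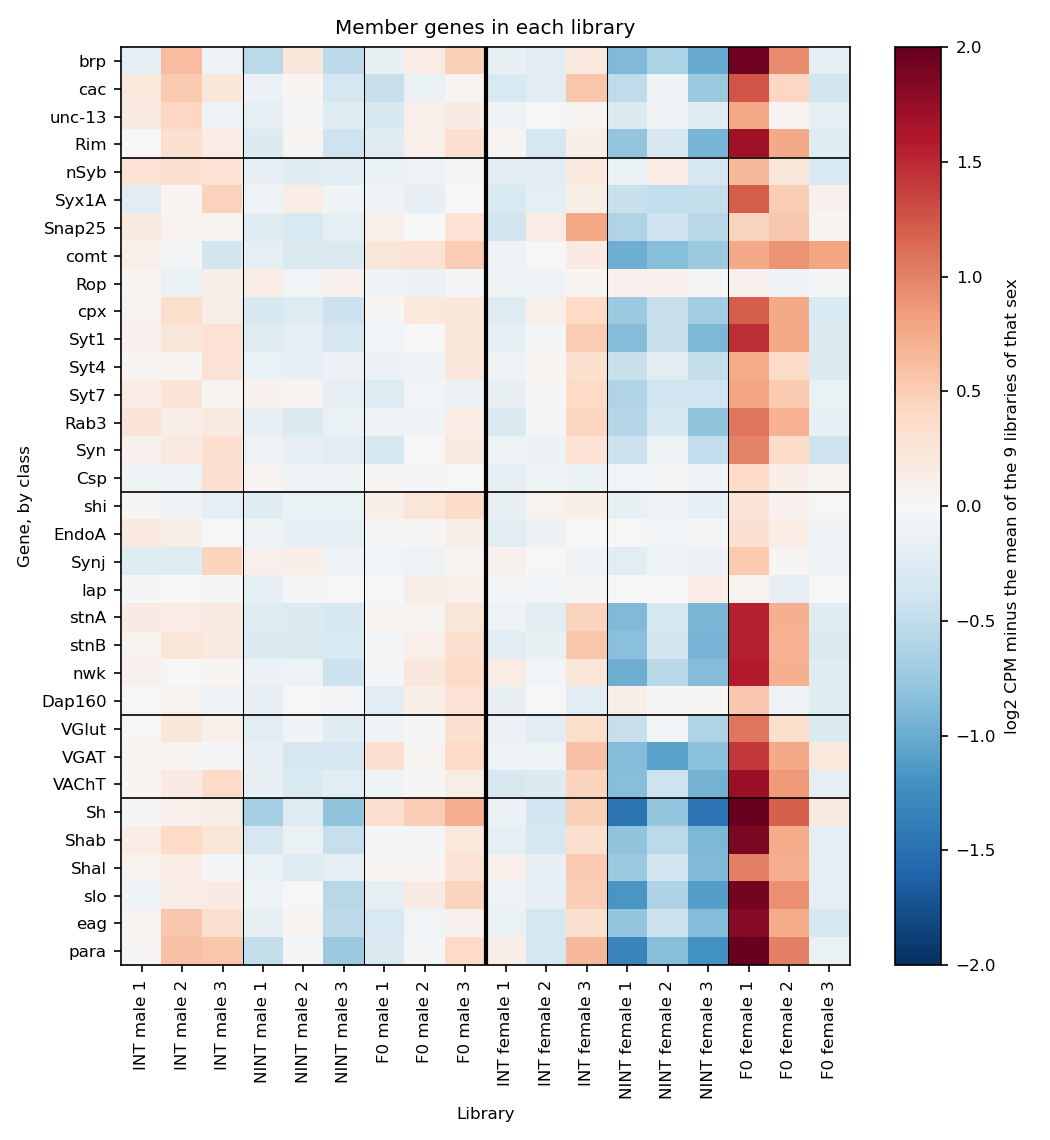
Each row is a gene and each column a library. Colour gives log2 CPM minus the gene's mean over the 9 libraries of that sex, from blue (lower) to red (higher), thin lines separate groups and classes, and the thick line separates males from females. Most rows are redder in INT than in NINT libraries of both sexes, and F0 female 1 holds the highest value of its group for 31 of the 33 genes.

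The comparison of INT with NINT within each sex asks whether the groups of generation F12 differ in these genes. In INT males 31 of the 33 genes had a positive log2 fold change over NINT males, with a median of 0.33, against 51.0% positive and a median of 0.01 over all 15051 genes tested. edgeR's quasi-likelihood test called 0 of the 33 at an adjusted p under 0.05, where 0.0399% of all genes were called. At an unadjusted p under 0.05 there were 15 of the 33, against 16.4% of all genes. DESeq2 called 10 of the 33, all higher in INT, against 6.21% of all genes. The INT and NINT male libraries did not overlap for 20 of the 33 genes, all higher in INT, where 9.66% of all genes had non-overlapping groups in that direction, and for 0 genes lower in INT, where the share of all genes was 10.8%.

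Among fusion and release genes, nSyb (3L, 1630348 to 1637752 in dm6) had the smallest p in males. It was at 288, 295 and 290 CPM in INT males, against 211, 201 and 204 CPM in NINT males. All INT males were above all NINT males by a gap far wider than the range within either group. The log2 fold change was 0.50 (SE 0.10, 1.42-fold, adjusted p = 0.13 by edgeR and 2.73e-09 by DESeq2). cpx (3R, 4280221 to 4304604), the complexin that holds SNARE complexes before calcium entry, was at 357, 434 and 375 CPM in INT males and at 274, 285 and 252 CPM in NINT males. These groups did not overlap either, and the log2 fold change was 0.52 (SE 0.13, adjusted p = 0.16).

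Rop (3L, 4136359 to 4138996) lay at the other end of the same class. It was at 133, 117 and 139 CPM in INT males and at 141, 124 and 135 CPM in NINT males. The groups overlapped, and the log2 fold change was -0.04 (SE 0.12, adjusted p = 0.85). The class as a whole had 11 of 12 genes above 0 with a median of 0.30. Beside 9.66% of all genes higher without overlap, 7 of the 12 had non-overlapping groups, all higher in INT. These included Syt1, the calcium sensor of fast release, with 0.46 (SE 0.13), Rab3, a vesicle GTPase, with 0.37 (SE 0.11), and Snap25, a target-membrane SNARE, with 0.34 (SE 0.12).

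All 4 active zone genes were above 0 in males, with a median of 0.38. The highest was cac, the presynaptic calcium channel subunit, at 0.46 (SE 0.17), and the lowest was unc-13, a vesicle priming factor, at 0.33 (SE 0.18). cac was the only gene of the class whose INT and NINT male libraries did not overlap, where 9.66% of all genes were higher without overlap. brp, the scaffold protein of the active zone, was at 51.9, 91.6 and 56.2 CPM in INT males and 41.1, 70.0 and 41.6 CPM in NINT males, so that each group held 1 library well above its other libraries. unc-13 shares exon sequence with annotated antisense RNAs, and its reads cannot be told apart from theirs without the strand setting of the counting, which the sources used here do not give.

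Endocytosis genes had the smallest median in males, at 0.17, with 7 of 8 above 0. stnA (X, 22980722 to 22995788), one of the open reading frames of the dicistronic stoned locus, was at 36.7, 36.5 and 37.1 CPM in INT males, against 27.8, 27.1 and 26.3 CPM in NINT males. The INT libraries agreed within 1 CPM and stood above every NINT library, and the log2 fold change was 0.44 (SE 0.11, adjusted p = 0.16). stnB shares 8332 exon bases with stnA, so its 0.45 (SE 0.12) is not an independent value.

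Synj (2R, 22080176 to 22085421), the synaptojanin lipid phosphatase, had the lowest value of the endocytosis class. It was at 40.1, 40.1 and 64.5 CPM in INT males and at 50.8, 52.3 and 44.5 CPM in NINT males. INT male 3 was above and the other INT males below all NINT males. Its log2 fold change of -0.03 (SE 0.19, adjusted p = 0.94) turned positive when 1 library was left out, to 0.11 without INT male 1, 0.08 without INT male 2 and 0.02 without NINT male 2, and that of Rop reached 0.01 without INT male 2.

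The 3 vesicular transporters were above 0 in males without overlap between INT and NINT, where 9.66% of all genes were. VAChT, which loads acetylcholine, had 0.43 (SE 0.13), VGAT had 0.30 (SE 0.13) and VGlut, which loads glutamate, had 0.28 (SE 0.13). VAChT lies within the cholinergic locus and shares 606 exon bases with ChAT, the gene of the enzyme that makes acetylcholine.

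The channel genes had the largest median of the 5 classes in males, at 0.54, with 6 of 6 above 0. Of these, 5 of 6 were higher without overlap, where 9.66% of all genes were. para (X, 16455027 to 16533096), the voltage-gated sodium channel of action potentials, was at 65.0, 96.1 and 94.2 CPM in INT males and 46.0, 62.2 and 37.9 CPM in NINT males. Sh (X, 17924307 to 18063245), the A-type potassium channel Shaker, was at 61.5, 67.4 and 67.9 CPM in INT males and 39.7, 52.7 and 35.9 CPM in NINT males. Shab (3L, 2895017 to 2959579), a delayed rectifier, was at 73.5, 87.3 and 78.1 CPM in INT males and 52.8, 60.5 and 48.3 CPM in NINT males. For each of these channels the lowest INT library exceeded the highest NINT library, narrowly for para. The log2 fold changes were 0.80 for para (SE 0.25, adjusted p = 0.21), 0.62 for Sh (SE 0.17, adjusted p = 0.18) and 0.56 for Shab (SE 0.14, adjusted p = 0.16). slo, the calcium-activated potassium channel gene, was the channel whose groups overlapped, with 0.28 (SE 0.20).

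The number of calls in males rested on INT male 3. Without it, 10 of the 33 genes were called by edgeR, all higher in INT, beside 26.1% of all genes. These were nSyb, Shab, cpx, stnA, stnB, EndoA, Rab3, Snap25, Syt1 and Sh. The fit without the 4 libraries set apart by yolk protein genes left 1 NINT male and 1 F0 male, so that the spread came from the INT males alone. It called 0 genes of any kind with 1 of the 33 at an unadjusted p under 0.05, and had a median of 0.32 over the 33 genes. Markers of some other tissues differed as well, and those of glia were mixed. The 9 glia markers had a median log2 fold change of 0.03, with 5 above 0 and 4 below. They summed to 673 to 690 CPM in INT males and to 547 to 592 CPM in NINT males. The 10 eye markers summed to 7641 to 9178 CPM in INT males and to 5342 to 6098 CPM in NINT males. Each of the 10 was above 0, and their median log2 fold change was 0.40. The 10 male accessory gland markers summed to 4795 to 9768 CPM in INT males and to 3599 to 4695 CPM in NINT males, all of them above 0 with a median of 0.59. Of these, 6 had an unadjusted p under 0.05, against 16.4% of all genes, and 0 were called, beside 0.0399%. The 9 ovary markers summed to 11.6 to 15.3 CPM in INT males and to 24.4 to 446 CPM in NINT males, with 9 of 9 below 0. The part of these tissues in the male results was not tested.

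**Figure D2:**
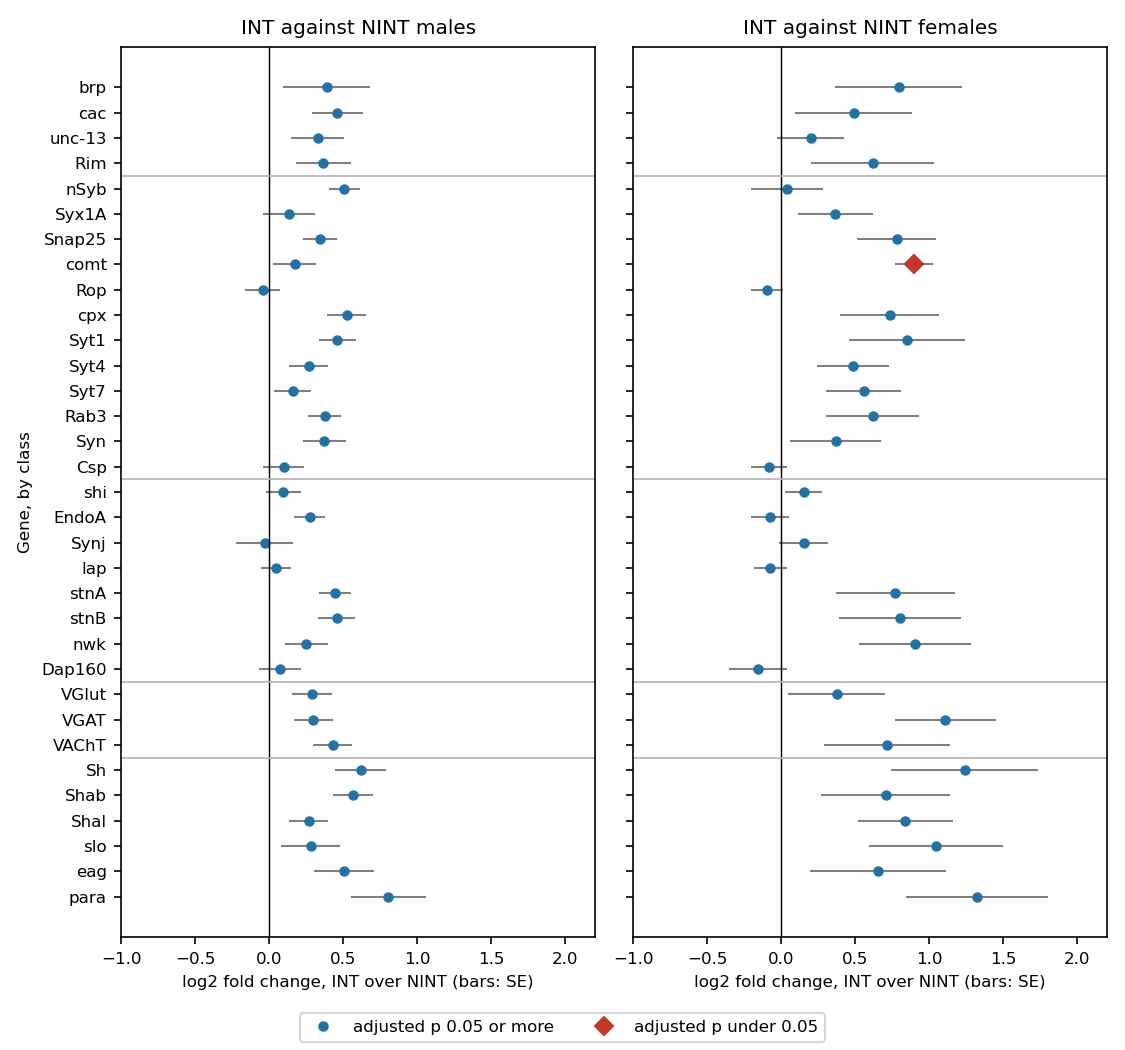
Points give the log2 fold change of INT over NINT for each of the 33 genes in males (left) and females (right), bars give its standard error, and grey lines separate the 5 classes. The diamond marks an adjusted p under 0.05, which in these panels is comt in females alone, and the channels at the bottom of the female panel run from 0.65 to 1.32.

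In INT females, comt (X, 13259021 to 13262488) rose relative to NINT females. comt encodes an NSF ATPase, which takes spent SNARE complexes apart so that their proteins can be used again. It was at 19.9, 21.1 and 23.4 CPM in INT females, against 10.5, 11.6 and 12.5 CPM in NINT females. The groups stood clearly apart, with narrow ranges in both, and the log2 fold change was 0.90 (SE 0.13, 1.86-fold, adjusted p = 0.026 by edgeR and 7.95e-09 by DESeq2). It was the 1 gene of the 33 called in this comparison, where 0.995% of all genes were called and 0.888% were called higher, and the 1 gene called by DESeq2, beside 6.61% of all genes. The call is close to the threshold: adjusted p was 0.10 with replicate number as a block, 0.011 without the 3 libraries set apart by Act88F, 0.049 without INT female 3, and 0.074 to 0.14 without any other INT or NINT female.

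Of the 33 genes 28 were above 0 in females, with a median of 0.62, against 51.2% and a median of 0.01 over all 13169 genes tested. At an unadjusted p under 0.05 there were 8 of the 33, against 15% of all genes. INT and NINT females did not overlap for 22 genes higher in INT, where 19% of all genes did so. They also did not overlap for 2 genes lower in INT, Csp and Dap160, where 18.7% of all genes did so. Without INT female 3 and F0 females 1 and 2, the median was 0.42 with 27 of 33 above 0, and 5 genes were called, all higher in INT, beside 6.14% of all genes. These were comt with 0.83, nwk, an adaptor of membrane remodelling at the synapse, with 0.84, para with 1.03, brp with 0.66 and slo with 0.81.

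The channels had the largest class median in females as well, at 0.94. INT females lay above NINT females without overlap for all 6, where 19% of all genes did so. para was at 51.4, 37.3 and 74.4 CPM in INT females and at 18.7, 26.1 and 20.4 CPM in NINT females. Sh was at 31.3, 26.0 and 47.2 CPM in INT females and at 12.3, 19.9 and 12.2 CPM in NINT females. INT female 3 was the highest library for both genes, and the range within INT females was about as wide as the distance between the group means. The log2 fold changes were 1.32 for para (SE 0.48, adjusted p = 0.24) and 1.24 for Sh (SE 0.49, adjusted p = 0.29).

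Among transporters, VGAT (2R, 14198478 to 14201249) was at 2.65, 2.64 and 4.28 CPM in INT females, against 1.53, 1.32 and 1.59 CPM in NINT females. The groups did not overlap, and the log2 fold change was 1.11 (SE 0.34, adjusted p = 0.18). VAChT had 0.71 (SE 0.43) and VGlut, whose groups overlapped, 0.38 (SE 0.33). In the fusion class Snap25 (3L, 24074180 to 24299205) was at 17.6, 25.4 and 38.9 CPM in INT females and at 15.1, 17.2 and 15.4 CPM in NINT females. The lowest INT female was only just above the highest NINT female, and the log2 fold change was 0.78 (SE 0.27, adjusted p = 0.22), with 0.42 as the lowest value when 1 library was left out.

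Active zone genes had a median of 0.55 in females and ranged between unc-13 at 0.20 (SE 0.23) and brp at 0.79 (SE 0.43). The endocytosis median was the smallest again, at 0.15, with nwk at 0.91 (SE 0.38) as its highest value. Dap160 (2L, 21134439 to 21142347), the fly intersectin, was its lowest, at 47.7, 53.3 and 45.7 CPM in INT females and 57.2, 53.4 and 53.5 CPM in NINT females. All INT females were below all NINT females, by less than 1 CPM at the nearest, and the log2 fold change was -0.16 (SE 0.20, adjusted p = 0.71). Rop was at 76.6, 77.8 and 84.2 CPM in INT females and at 87.3, 87.3 and 80.2 CPM in NINT females, overlapping, with -0.09 (SE 0.11, adjusted p = 0.69).

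INT female 3 held the highest value of its group for 30 of the 33 genes. The summed 10 muscle markers ranged from 4144 to 20221 CPM over INT females and from 2787 to 4053 CPM over NINT females, with 10 of 10 above 0 and a median log2 fold change of 1.62. The 9 glia markers summed to 320 to 503 CPM in INT females and to 217 to 286 CPM in NINT females. All 9 were above 0, with a median log2 fold change of 0.83. The share of ribosomal RNA was higher in every INT female (10.4 to 23.2%) than in any NINT female (5.94 to 7.36%). The 3 yolk protein genes summed to 12462 to 12744 CPM in INT females and to 15861 to 17487 CPM in NINT females, all 3 below 0. Of the 9 ovary markers 6 were below 0, with a median of -0.33, and of the 10 eye markers 6 were below 0, with a median of -0.07. The part of these tissues and of ribosomal RNA content in these results was not tested.

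**Figure D3:**
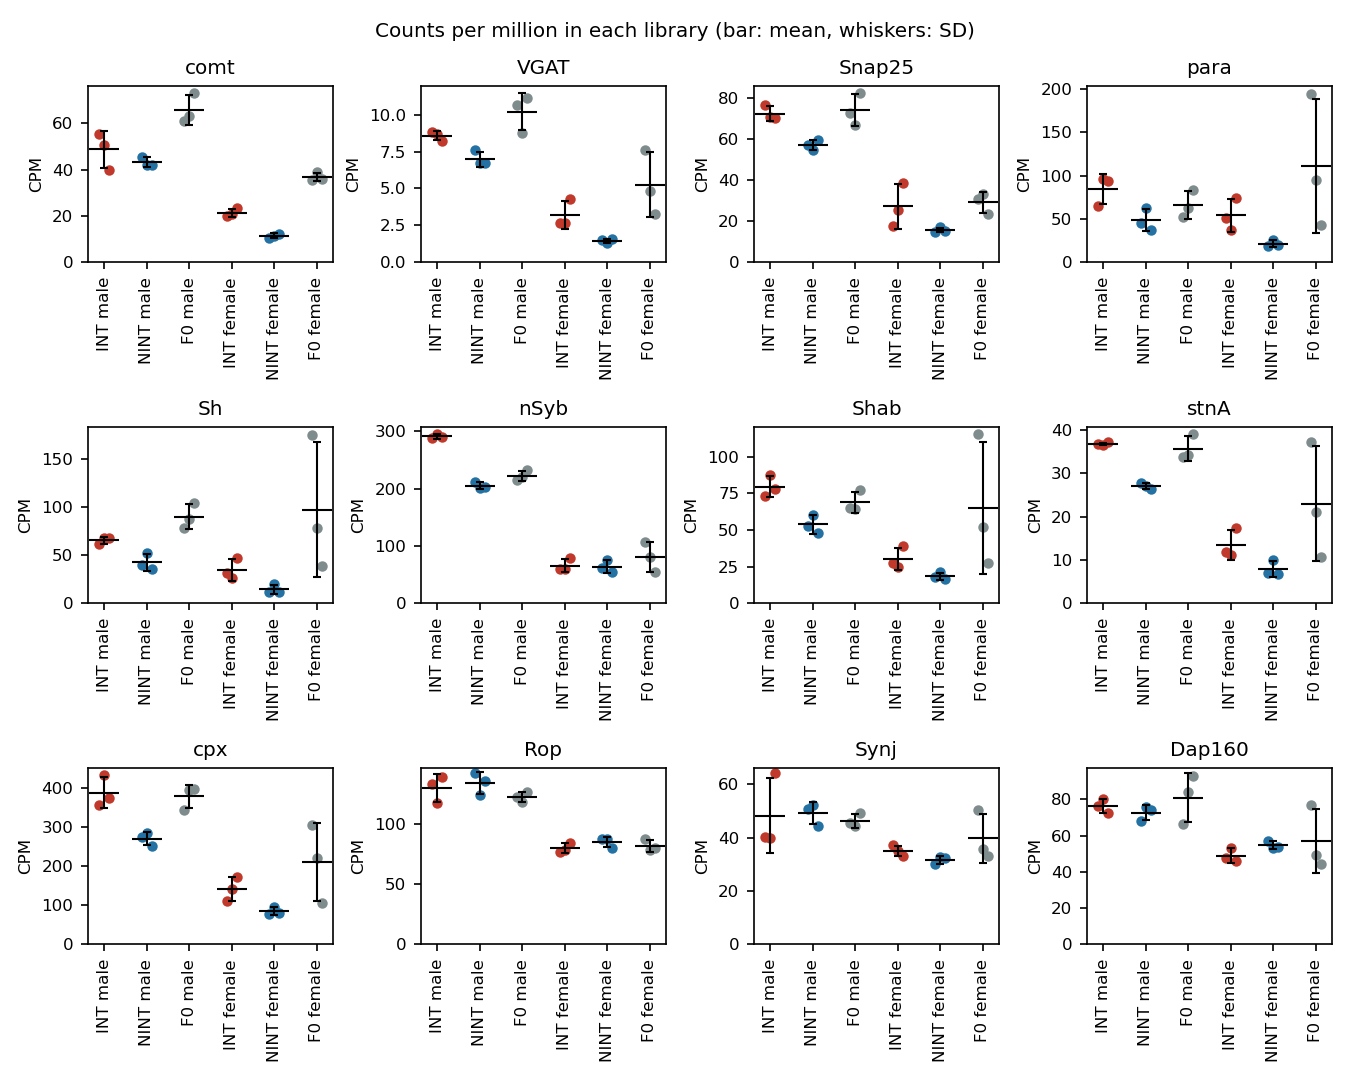
Each panel gives the CPM of a gene in every library (points), with the group mean (bar) and SD (whiskers, n = 3) and a vertical axis that starts at 0. comt separates INT from NINT in females and overlaps in males, nSyb separates them in males and overlaps in females, and F0 females spread widely for para, Sh, Shab and stnA.

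The sexes were set side by side, and the difference between them was tested in a fit of all 18 libraries. INT was above NINT in both sexes for 27 of the 33 genes, and 15 of these did so without overlap in either sex, where 3.91% of the 12930 genes tested in both sexes did so. The 15 were Snap25, cpx, Syt1, Syt4, Rab3, stnA, stnB, nwk, VGAT, VAChT, Sh, Shab, Shal, eag and para. The log2 fold change was larger in females for 25 genes, and the Spearman correlation of the male and female values across the 33 genes was 0.53, as a description over genes that share libraries. No difference between sexes was called by edgeR or DESeq2 for any of the 33, where edgeR called 0.268% and DESeq2 3.3% of all genes, and 2 of the 33 had an unadjusted p under 0.05, against 12.2% of all genes.

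Those 2 genes were comt and EndoA. comt was at 55.5, 50.8 and 39.9 CPM in INT males and at 45.6, 42.1 and 42.0 CPM in NINT males, which overlapped, with 0.17 (SE 0.15, adjusted p = 0.57). Its female log2 fold change exceeded the male one by 0.65 (SE 0.21, adjusted p = 0.22). EndoA (3R, 18906609 to 18910755), the endophilin that bends the membrane during vesicle recovery, was at 79.7, 76.4 and 70.2 CPM in INT males and at 65.1, 61.7 and 60.6 CPM in NINT males. In females it was at 37.9, 40.7 and 44.3 CPM in INT and at 44.3, 42.4 and 43.2 CPM in NINT, so the groups were apart in males and overlapped in females, and the difference was -0.42 (SE 0.18, adjusted p = 0.36).

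nSyb had the lowest difference of the 33. It was at 59.6, 59.6 and 78.7 CPM in INT females and at 62.5, 76.1 and 54.3 CPM in NINT females, which overlapped, with 0.04 (SE 0.24). Its difference between sexes was -0.53 (SE 0.28, adjusted p = 0.48). VGAT had the highest, at 0.74 (SE 0.38, adjusted p = 0.45). The median difference over the 33 genes was 0.18 with TMM scaling and 0.08 with RLE scaling, which moved the median of all genes to -0.06, against 0.04 with TMM. Without the 7 libraries set apart, which left NINT male 1 as the only NINT male, the median was -0.06. Its sign thus changed over the settings, and the median of all genes in that fit is not given here.

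Neuron markers lay higher in INT as well. The 10 markers elav, fne, Appl, futsch, ChAT, Gad1, Rdl, nAChRalpha1, nAChRbeta1 and CadN summed to 551 to 704 CPM in INT males and to 424 to 509 CPM in NINT males. In females they summed to 255 to 391 CPM in INT and 157 to 224 CPM in NINT. All 10 were above 0 in both sexes, with a median log2 fold change of 0.45 in males and 0.86 in females. edgeR called 0 in either sex, beside 0.0399% of all genes in males and 0.995% in females. At an unadjusted p under 0.05 there were 7 in males, against 16.4% of all genes, and 4 in females, against 15%. DESeq2 called 1 in males, beside 6.21% of all genes, and 0 in females, beside 6.61%. The part of nerve tissue content in the results above was not tested, and the levels relative to these markers are given next as a description.

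Set against the mean log2 level of the neuron markers in the same library, the synaptic genes no longer lay higher in INT. The median of INT minus NINT was -0.11 in males, with 10 of the 33 above 0, and -0.16 in females, with 9 above 0. Over all genes tested, it was -0.44 in males, with 12.5% above 0, and -0.77 in females, with 11.9% above 0. Shab was the 1 gene above without overlap in males, where 0.691% of all genes were, with a mean log2 of 0.81 ± 0.04 in INT and 0.67 ± 0.05 in NINT relative to the markers (SD, n = 3). In females Sh was at 0.71 ± 0.15 in INT and 0.26 ± 0.18 in NINT, slo at 0.48 ± 0.03 in INT and 0.23 ± 0.14 in NINT, and para at 1.34 ± 0.25 in INT and 0.84 ± 0.17 in NINT, and these were the 3 genes above without overlap, where 2.85% of all genes were. comt in females was at 0.05 ± 0.24 in INT and -0.06 ± 0.34 in NINT on this scale, which overlapped. Below without overlap were 7 genes in males, where 36.6% of all genes were, and 13 in females, where 59.8% were, among them Rop and lap in both sexes.

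The genes differed in how far they followed the neuron markers from library to library within a group. With each group centred on its mean, the Pearson correlation of log2 CPM with the markers over the 18 libraries was above 0.8 for 23 of the 33 genes, with a median of 0.94 over all 33. Syt1 was the closest with 0.99, and the gene most like it was stnB, also with 0.99. At the other end were Csp with 0.50, Synj with 0.50, Rop with 0.36, comt with 0.10 and lap, the clathrin adaptor AP180, with 0.08. The points share library, depth and the wide spread of F0 females, so these are descriptions. The correlation was not taken over all genes, so a high value is not shown to be particular to the 33. The profile most like that of comt was EndoA, with 0.53, and Synj and Csp were most like each other, with 0.91.

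**Figure D4:**
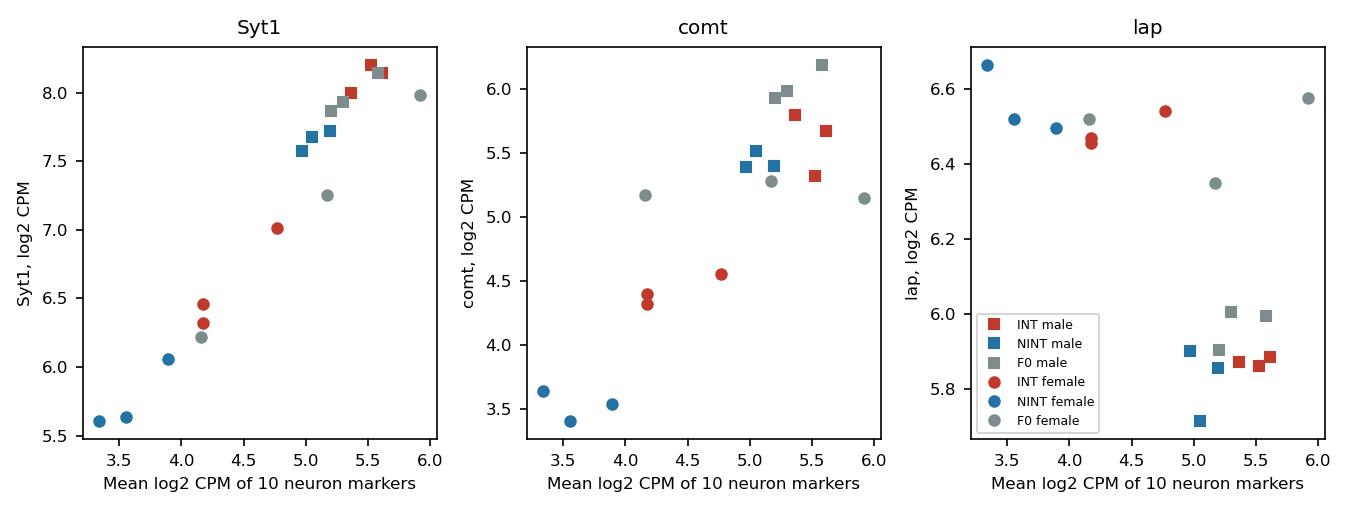
Log2 CPM of Syt1, comt and lap against the mean log2 CPM of the 10 neuron markers, with squares for male and circles for female libraries. Syt1 follows the markers over all libraries, and comt is at 35.5 to 38.8 CPM in F0 females over their whole range of marker levels. lap is drawn higher in females than in males, on library sizes scaled separately for each sex, which are not a common scale.

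Against the founders, the comparisons with F0 share the F0 libraries with each other and the INT or NINT libraries with the comparisons above. In NINT females 20 of the 33 genes fell relative to F0 females, where 22.5% of all genes were called and 14.9% were called lower. The median log2 fold change was -1.17 with 31 of 33 below 0, against -0.01 over all genes. All 6 channels were called, 2 of 3 transporters, 7 of 12 fusion genes, 2 of 4 active zone genes and 3 of 8 endocytosis genes. For 23 genes the NINT females lay below all F0 females, where 21% of all genes did so, and DESeq2 called 22 genes, beside 34.2% of all genes.

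comt had the smallest p, at 10.5, 11.6 and 12.5 CPM in NINT females and 35.5, 38.8 and 36.1 CPM in F0 females, and the log2 fold change was -1.67 (SE 0.13, adjusted p = 7.5e-04). F0 females were tight for this gene and wide for the genes that follow. Sh was at 12.3, 19.9 and 12.2 CPM in NINT females and at 175, 78.2 and 38.4 CPM in F0 females (-2.71, SE 0.52, adjusted p = 0.012). VGAT was at 1.53, 1.32 and 1.59 CPM in NINT females and at 7.63, 4.85 and 3.27 CPM in F0 females (-1.82, SE 0.35, adjusted p = 0.012). For para, at 195, 94.8 and 42.7 CPM in F0 females, the log2 fold change of NINT over F0 was -2.35 (SE 0.49, adjusted p = 0.017), and for brp, at 127, 64.2 and 28.8 CPM in F0 females, it was -1.98 (SE 0.44, adjusted p = 0.020). In each of these genes but comt, F0 female 1 was highest and F0 female 3 lowest. Leaving out 1 NINT female kept comt under the threshold, whereas VGAT, para and brp then had adjusted p-values of 0.051 to 0.082 and Sh 0.042 to 0.061.

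The summed neuron markers ranged from 157 to 224 CPM in NINT females and from 266 to 988 CPM in F0 females, with 7 of the 10 called lower. The summed muscle markers were at 2787 to 4053 CPM in NINT females and at 7437 to 58157 CPM in F0 females, with 9 of 10 called lower. The summed glia markers were at 217 to 286 CPM in NINT females and at 349 to 708 CPM in F0 females, with 6 of 9 called lower and a median of -1.12, and ribosomal RNA took 5.94 to 7.36% of counts in NINT females and 20.3 to 36.3% in F0 females. The part of these in the result was not tested. Without F0 females 1 and 2 and INT female 3, which left 1 F0 female assumed to vary like the other groups, 3 of the 33 genes were called, beside 6.35% of all genes. They were comt (-1.63), Sh (-1.36) and Syx1A, a target-membrane SNARE (-0.53), and the median was -0.37. The F0 female left in that fit, F0 female 3, held the lowest value of its group for 30 of the 33 genes. Syx1A shares 447 exon bases with eIF4EHP, a gene on the same strand. The number called was 3 with the replicate block, beside 6.45% of all genes, 28 without F0 female 3, beside 51.1% of all genes, and 9 without F0 female 1, beside 12.4% of all genes. It was 3 without F0 female 2 (4.74% of all genes), 1 without NINT female 1 (4.4%), 2 without NINT female 2 (4.88%) and 1 without NINT female 3 (4.35%). Relative to the neuron markers, the median of NINT minus F0 females was 0.40 with 25 of 33 above 0, against 1.51 and 91.8% over all genes. Above without overlap were 19 of the 33, where 62.1% of all genes were, and below without overlap were Sh, slo and para, where 2.62% of all genes were.

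INT females had 32 of the 33 genes below 0 against F0 females, with a median of -0.56. Over all genes tested 49.5% were above 0, with a median of -0.01. comt was the 1 gene called, where 2.12% of all genes were called and 0.926% were called lower. DESeq2 called comt and Sh, beside 7.46% of all genes. With 19.9, 21.1 and 23.4 CPM in INT females comt fell relative to the F0 females, with a value of -0.78 (log2, SE 0.13, adjusted p = 0.019). The adjusted p was 0.065 with the replicate block and 0.098 to 0.11 without F0 female 2, INT female 1 or INT female 2. comt and Csp were the 2 genes for which all INT females were below all F0 females, where 8.34% of all genes did so. Without the 3 libraries set apart the median was 0.07 and edgeR called 0 of the 33, beside 1.21% of all genes, comt having -0.80 with an adjusted p of 0.050. Without F0 female 3, 19 of the 33 were called, all lower, beside 32.2% of all genes. In the fit of all libraries, marker lists differed as well. All 10 neuron markers (median -0.76) and all 10 muscle markers (-1.82) were below 0, as were 8 of 9 glia markers (-0.46). Above 0 were 8 of 9 ovary markers (0.49), 3 of 3 yolk protein genes (0.63) and 7 of 10 eye markers (0.36). The part of these tissues in the result was not tested.

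In males the medians against F0 were nearer to 0. NINT males had 28 of 33 genes below 0 against F0 males, with a median of -0.25, and 18 of the 33 lay below without overlap, where 24.1% of all genes did so. Sh was the 1 gene called, where 5.04% of all genes were called and 2.51% were called lower. It fell to 39.7, 52.7 and 35.9 CPM in NINT males, against 77.9, 88.0 and 103.7 CPM in F0 males (-1.07, SE 0.17, adjusted p = 0.016). DESeq2 called 9 of the 33, all lower, beside 20.8% of all genes. Sh had an adjusted p of 0.053 with the replicate block, and of 0.063 to 0.085 without F0 male 2, F0 male 3, NINT male 1 or NINT male 3. Without the set-apart males 1 NINT and 1 F0 male remained and all the spread came from the INT males. That fit cannot test this call, and the log2 fold change of Sh there was -1.38. The F0 male left, F0 male 3, held the highest value of its group for 30 of the 33 genes, among them Sh. Marker lists differed in the same comparison. Of the 10 neuron markers 8 were below 0 with 1 called lower, at 424 to 509 CPM in NINT males and 480 to 635 CPM in F0 males when summed. Of the 9 glia markers 2 were called lower, and all 10 accessory gland and all 10 testis markers were below 0, with medians of -0.70 and -0.74 and 0 called. Muscle markers were below 0 for 9 of 10, with 0 called, and summed to 5745 to 7245 CPM in NINT males and 5898 to 18696 CPM in F0 males, where F0 male 1 was the highest. The part of these tissues in the result was not tested.

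INT males had 22 of 33 above 0 against F0 males, with a median of 0.05. edgeR called 0 of the 33, where 1.82% of all genes were called, and 6 had an unadjusted p under 0.05, against 19.1% of all genes. INT males lay above all F0 males for cac, nSyb and Syt7, where 10.9% of all genes did so, and below them for comt, lap, Sh and shi, where 11.7% of all genes did so. DESeq2 called 1 gene, nSyb, beside 9.41% of all genes. nSyb was at 288, 295 and 290 CPM in INT males against 215, 221 and 232 CPM in F0 males, which did not overlap. comt, at 60.8, 63.2 and 72.9 CPM in F0 males, was above all INT males, and the log2 fold change of INT over F0 was -0.43 (SE 0.15, adjusted p = 0.17).

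**Figure D5:**
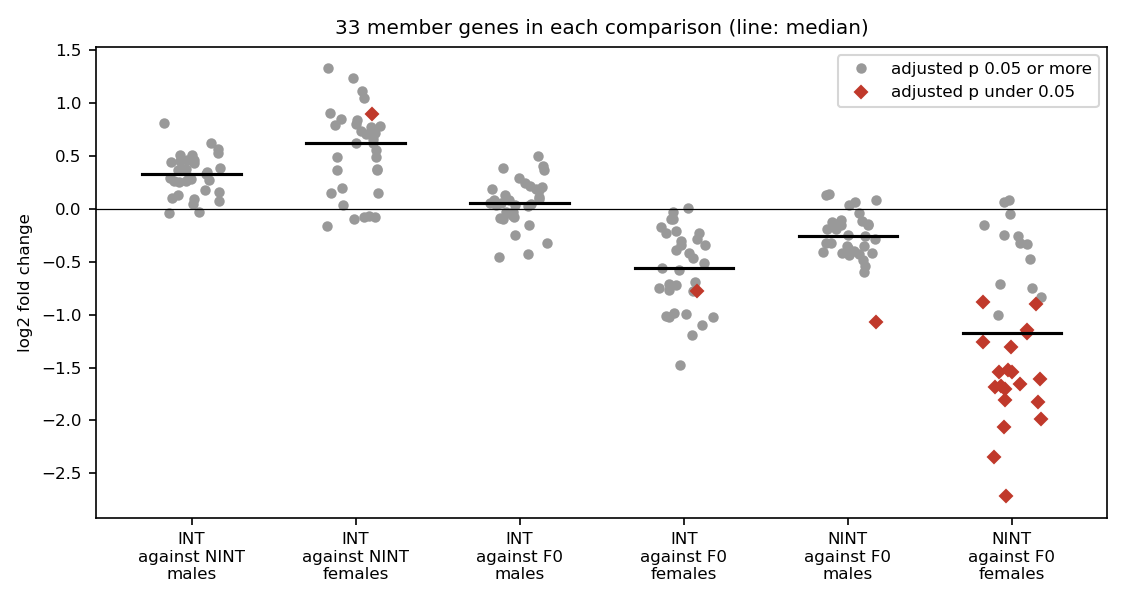
Each point is the log2 fold change of one of the 33 genes in the comparison named below it, lines mark the medians, and diamonds mark an adjusted p under 0.05. The medians are 0.33 and 0.62 for INT against NINT in males and females, and NINT against F0 females holds 20 of the diamonds at a median of -1.17.

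A list of 64 other genes of synaptic transmission and excitability was measured beside the 33. edgeR called 0 of the 64 in INT against NINT in either sex, beside 0.0399% of all genes in males and 0.995% in females. At an unadjusted p under 0.05 there were 19 in males, against 16.4% of all genes, and 8 in females, against 15%. DESeq2 called 10 in males, beside 6.21% of all genes, and 3 in females, beside 6.61%, all higher in INT. The median log2 fold change was 0.22 in males, with 50 of 64 above 0, and 0.40 in females, with 49 above 0. Syngr, the synaptogyrin of the vesicle membrane, had the smallest p in males, with 0.69 (SE 0.13, adjusted p = 0.13). tipE, an auxiliary subunit of the para sodium channel, had the smallest p in females, with 0.82 (SE 0.20, adjusted p = 0.11). For the difference between sexes 0 of the 64 were called by edgeR and 0 by DESeq2, beside 0.268% and 3.3% of all genes. By edgeR 3 had an unadjusted p under 0.05, against 12.2% of all genes, with the smallest p at sand, a leak potassium channel gene (1.08, SE 0.39, adjusted p = 0.26).

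Against F0 the same list had 1 call in INT females by edgeR, tipE, and 1 by DESeq2, beside 2.12% and 7.46% of all genes. tipE had -2.19 (SE 0.21, adjusted p = 0.0038). In NINT females 22 of the 64 were called lower, where 14.9% of all genes were, and 1, the inward rectifier Irk3, higher, while DESeq2 called 28 lower and 4 higher, beside 34.2% of all genes. tipE was the first by p with -3.02 (SE 0.21, adjusted p = 7.5e-04), followed by TEH2, a relative of tipE, with -1.43 (SE 0.31), Hk, the Shaker beta subunit, with -2.07 (SE 0.49), and Syngr with -1.39 (SE 0.34). In males 0 of the 64 were called against F0 by edgeR in either group, beside 1.82% of all genes for INT and 5.04% for NINT. Each group had 10 at an unadjusted p under 0.05, against 19.1% of all genes for INT and 4804 of 15051 genes for NINT. DESeq2 called 4 in INT males, all higher, beside 9.41% of all genes. In NINT males it called 1 higher and 5 lower, beside 20.8% of all genes. The smallest p belonged to Sytalpha in INT males (0.57, SE 0.15, adjusted p = 0.098) and to TEH3 in NINT males (-0.58, SE 0.15, adjusted p = 0.064).

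The 33 genes lie on 6 chromosome arms or chromosomes, with 9 on 3R, 8 on X, 7 on 3L, 4 on 2R, 3 on 2L and 2 on chromosome 4. Their log2 fold change was related to exon length in some comparisons. The Spearman correlation of union exon length with the log2 fold change across the 33 genes was 0.59 in INT against NINT males and 0.29 in females. It was -0.54 in INT against F0 females and -0.46 in NINT against F0 females. These values describe genes that share libraries and carry no test.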

How the data were processed

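The authors deposited 1 table of raw counts per gene for each sex, as the files show whole numbers that sum to different totals, with 9 libraries each. Per the labels' protocols, total RNA of whole flies was extracted with Trizol and made into libraries with the SMARTer Stranded RNA-Seq kit. The submitters' processing notes name dm6 and DESeq2, and the sources used here do not give the aligner, the counting tool or its strand setting.

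R 4.3.3 with edgeR 4.0.16 and limma 3.58.1 was used to fit the counts of each sex, with 1 coefficient per group, TMM scaling, filterByExpr (minimum count 10, minimum total 15) and the two-sided quasi-likelihood test. The threshold was a p under 0.05 after Benjamini-Hochberg adjustment over all genes tested, and the SE was the log2 fold change divided by the square root of F. The difference between sexes came from a fit of all 18 libraries. Levels are counts per 1e6 with library sizes TMM-scaled within each sex, so male and female levels are not on a common scale. The cuts on Act88F and the yolk protein genes used unscaled totals, and logarithms used a prior count of 2. Exon lengths and overlaps came from the Ensembl annotation of the same assembly. DESeq2 1.42.0, RLE scaling, no filter, a replicate block, leaving out each library and leaving out the libraries set apart were the alternatives. Python 3.11.15, pandas 2.3.3, scipy 1.17.1 and matplotlib 3.10.9 made summaries and figures, and the scripts were tested on simulated data.

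The members and lists were chosen with earlier results of these data known. Per-library values are given for called genes, the 4 smallest p and the 2 largest and 2 smallest fold changes per sex in INT against NINT, and the genes called against F0 (at most 5 by p). Other genes are given by class, with its extremes and examples chosen after their values were seen. The labels give replicate numbers without saying what they mark. In deviations from the group means, INT and NINT females of the same number correlated at 0.60, 0.14 and 0.12, each above 0.1. Some libraries of unlike number correlated more: INT female 2 with NINT female 3 at 0.42, and INT female 3 with NINT female 2 at 0.36. Pairing by number was thus not shown, and the block is reported as an alternative fit only. Over 18 pairs of libraries of the same group the chi-square per gene was 53.4 to 1227, beyond sampling noise. No sequence is printed.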

Additional observations from a re-analysis of the deposited data

How the results depend on the processing

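The number of the 33 genes called in INT against NINT males was 10 with DESeq2, and the number of all genes called was 934 with DESeq2, 0 with the replicate block and 0 without the libraries set apart, against 6. In INT against NINT females it was 0 of the 33 with the replicate block and 5 without the libraries set apart, with 870 genes (DESeq2), 3 (block) and 839 (set apart), against 131. For the difference between sexes 505 genes were called with DESeq2, 22 with RLE scaling, 21 without the filter, 0 with the block and 2 without the libraries set apart, against 41. In INT against F0 males DESeq2 called 1 of the 33, and 1416, 63 and 0 genes were called with DESeq2, the block and without the libraries set apart. In INT against F0 females those settings called 2, 0 and 0 of the 33 and 983, 80 and 166 genes. In NINT against F0 males they called 9, 0 and 0 of the 33 and 3125, 149 and 0 genes, and in NINT against F0 females the block and the fit without set-apart libraries called 3 and 3 of the 33, with 4503, 850 and 867 genes over all 3 settings. Beside the calls, the cause of these differences was not tested.

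Leaving out 1 library gave 0 to 10 of the 33 and 0 to 3956 genes in INT against NINT males, 0 to 1 and 4 to 153 in females, and 0 to 0 and 5 to 702 for the difference between sexes. It gave 0 to 0 and 28 to 482 in INT against F0 males, 0 to 19 and 30 to 4310 in INT against F0 females, 0 to 1 and 84 to 924 in NINT against F0 males, and 1 to 28 and 583 to 6851 in NINT against F0 females. In males Rop then ranged from -0.10 to 0.012 and Synj from -0.28 to 0.11. Same-numbered libraries were not shown to be paired in any pair of groups. Outside INT against NINT females their correlations had a lowest value of -0.56 and a highest of 0.57. In every pair of groups at most 2 of 6 libraries correlated best with their own number. The 3 libraries of a group limit the precision, and libraries of the same group differed by more than counting noise.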
